A study of Mus musculus with 17 samples.

Results

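The 35 genes described here encode the proteins by which heart muscle takes up, stores and burns fatty acids. They were chosen by symbol, with earlier results of these data known. All 35 had a row of their own among the 31647 features of the count table. By their place in the pathway they fell into 4 uptake genes, 5 genes of activation and the carnitine shuttle, 12 beta-oxidation enzymes, 3 genes of electron transfer, 3 genes for thioesterases and an uncoupling protein, 6 lipid droplet genes and 2 genes that set malonyl-CoA. Transcripts were counted in hearts of 17 young adult male wild-type C57BL/6J mice 5 days after surgery. In 9 mice the left anterior descending coronary artery (LAD) had been ligated for good to cause a myocardial infarction, and the infarct zone (IZ) was cut out of the left ventricle. The other 8 mice had the same operation without ligation (sham) and gave left ventricular tissue, so the groups differ both in the ligation and in the part of the ventricle that was sampled. All mice had isoflurane anaesthesia and buprenorphine, and neither group carried a transgene.

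Fatty acids are the main fuel of the adult heart. They are freed from lipoproteins by lipoprotein lipase, cross the membrane with the help of CD36 and FATP1, ride on the carrier FABP3 and are linked to coenzyme A. The carnitine shuttle then moves long-chain acyl groups into mitochondria, where each turn of beta-oxidation removes an acetyl-CoA unit in 4 reactions and passes electrons to the respiratory chain through the electron transfer flavoprotein. Fatty acids not burned at once are kept as triglyceride in lipid droplets, and malonyl-CoA brakes the shuttle at its first enzyme, CPT1. Many of these genes are known targets of the nuclear receptor PPAR alpha, which is active in heart muscle.

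The 17 libraries held 1237675 to 4738307 counts each. Values below are CPM, counts normalised to the library size after TMM scaling (a trimmed mean of log ratios between libraries), and since the method counts 1 end per transcript molecule they are not divided by gene length. IZ replicate 1 stood apart, with 19.5% of its counts on mitochondrially encoded genes against 4.22 to 6.78% in the other 8 IZ libraries and 22.9 to 32.4% in sham. Summed CPM of 8 cardiomyocyte contractile genes was 63297 to 77676 in sham. In the IZ it was 29968 in replicate 1 and 2946 to 6976 in the others. All 8 contractile genes, all 7 macrophage markers and 6 of 7 fibroblast markers passed the test between the groups, the first list lower and the other 2 higher in the IZ. In bulk tissue, fewer heart muscle cells and less RNA per cell cannot be told apart.

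Fatty acid transcripts were lower in the infarct zone at every step, with 1 gene as the exception. Of the 35 members, 34 were called lower in the IZ and 1, Cpt1a, was called higher (edgeR's quasi-likelihood test, Benjamini-Hochberg adjusted over all genes tested, threshold 0.05). Over all 12301 genes tested, 33.1% were called lower and 36.3% higher. The median log2 fold change of the members was -3.04, an 8.21-fold lower level, beside 0.05 over all genes tested. Without IZ replicate 1 it was -3.36, and again 34 were called lower and 1 higher. At least 2-fold lower were 33 members, at least 4-fold lower 30, and at least 8-fold lower 20. In 33 members every IZ library lay below every sham library, a separation found in 16.5% of all genes tested. The largest adjusted p among the members was 0.00386, for Dgat1.

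**Figure D1:**
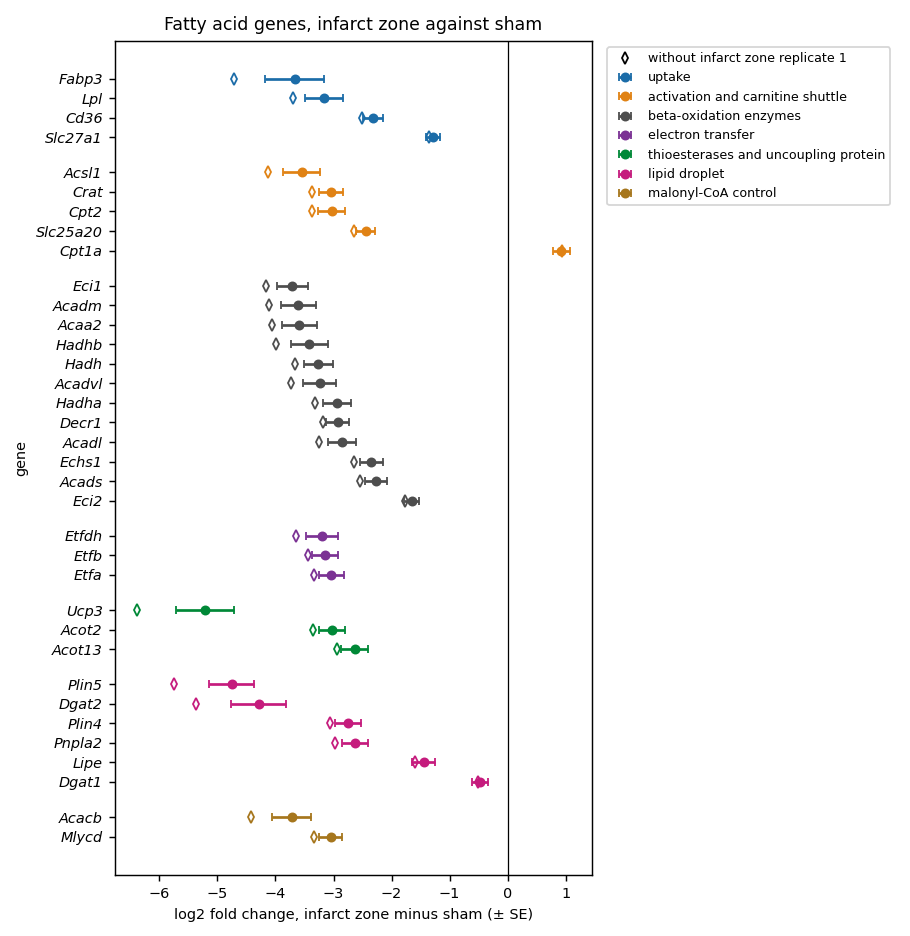
Log2 fold change of each of the 35 fatty acid genes in the infarct zone against sham (points with bars of 1 SE, TMM scaling), grouped by step, with open diamonds for the fit without infarct zone replicate 1. All but Cpt1a lie left of 0, from Ucp3 at -5.22 to Dgat1 at -0.47.

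Together the 35 transcripts summed to 20789 to 26207 CPM in sham (mean 23306 ± 1596, SD, n = 8). In the IZ the sum was 1763 to 8063 CPM, and 1763 to 2509 CPM without replicate 1 (mean 2071 ± 283, SD, n = 8). Thus no IZ library reached the lowest sham library. As a share of all counts in a library the members took 1.43 to 1.75% in sham and 0.267 to 0.839% in the IZ. IZ replicate 1 was the highest IZ library in 32 of the 35 members and the lowest in 1, Cpt1a.

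The steps had similar medians. They were -2.74 for uptake, -3.03 for activation and the carnitine shuttle, -3.09 for the beta-oxidation enzymes, -3.15 for electron transfer, -3.02 for thioesterases and the uncoupling protein, -2.69 for lipid droplets and -3.39 for malonyl-CoA control, all as log2 fold changes. Members of 1 step often lay further apart than the steps did. Lipid droplet genes ran from -4.75 to -0.47 and beta-oxidation enzymes from -3.71 to -1.65, while the 3 electron transfer genes lay within -3.20 to -3.04. The 4 uptake genes gave the largest mean sum of any step in both groups, 9574 to 11735 CPM in sham and 662 to 4114 CPM in the IZ. Beta-oxidation enzymes came next with 6231 to 8564 CPM and 595 to 2320 CPM.

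**Figure D2:**
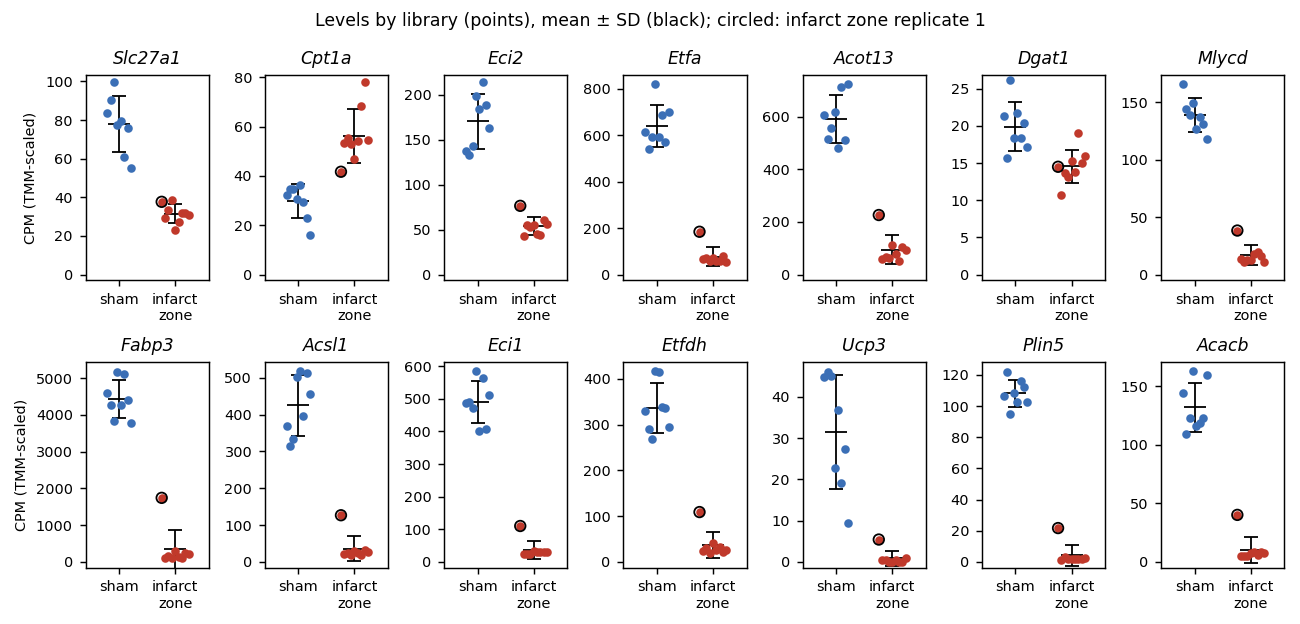
CPM of the member with the lowest and the highest log2 fold change of each step, 1 point per library (linear axis), for sham (n = 8) and the infarct zone (n = 9). Infarct zone replicate 1 lies nearest to sham for most genes, and Cpt1a is the gene whose infarct zone points lie above all sham points.

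Among the uptake genes, lipoprotein lipase and the carrier FABP3 had the most abundant transcripts of the whole pathway in sham, ranked 36 and 40 among all genes tested by mean CPM. Fabp3 (ENSMUSG00000028773, chr4:130308595-130315463, plus strand, build mm10) encodes the fatty acid binding protein of heart and muscle cytosol. It ran from 3778 to 5175 CPM (median 4345) in sham and 108 to 1744 CPM (median 164) in the IZ. The 2 groups did not overlap, and the highest IZ value was replicate 1, with at most 289 CPM in the other 8. The fall was 12.7-fold (log2 fold change -3.67, SE 0.50, adjusted p = 8.13e-07), and the log2 fold change was -4.72 (SE 0.20) without IZ replicate 1. The last 500 bases of Fabp3 share 262 bases at 99.2% identity with the pseudogene Fabp3-ps1, which held 5492 counts over all libraries against 71657 for Fabp3, so the counting could have split reads between them.

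Lpl, which encodes the lipase that frees fatty acids from circulating triglyceride, ran from 4411 to 5630.2 CPM (median 5218) in sham and 322 to 1896 CPM (median 391) in the IZ. Its groups were also apart, with a log2 fold change of -3.17 (SE 0.32, adjusted p = 9.49e-09). Cd36, the membrane glycoprotein through which much of the long-chain fatty acid enters heart muscle, was less reduced. It ran from 1090.2 to 1325 CPM (median 1179) in sham and 159 to 437 CPM (median 212) in the IZ (log2 fold change -2.32, SE 0.17, adjusted p = 8.12e-11). Slc27a1 (ENSMUSG00000031808, chr8:71568882-71587302, plus strand) encodes FATP1, a membrane transporter with acyl-CoA synthetase activity, and fell least of the uptake genes. Its values were 55.0 to 99.8 CPM in sham (median 78.6) and 23.2 to 38.8 CPM in the IZ (median 32.0), a 2.44-fold fall (log2 fold change -1.29, SE 0.12, adjusted p = 3.60e-09). Here IZ replicate 1 was not the highest of its group, and the groups stayed apart. The end of Slc27a1 holds a repeat that matches the ends of Npepps, Reps1 and Slc3a2 at 95.03 to 95.68% identity over 136 to 162 bases, and its call was lost with total counts as library sizes.

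Activation and the carnitine shuttle held the 1 member that was higher in the infarct zone. Cpt1a (ENSMUSG00000024900, chr19:3322334-3385733, plus strand) encodes the liver form of carnitine palmitoyltransferase 1, the enzyme of the outer mitochondrial membrane that malonyl-CoA inhibits. Its transcript ran from 16.1 to 36.2 CPM (median 31.5) in sham and 41.7 to 78.0 CPM (median 54.1) in the IZ. All 9 IZ libraries lay above all 8 sham libraries, which held for 16.6% of all genes tested, and replicate 1 was the lowest of them. The rise was 1.90-fold (log2 fold change 0.92, SE 0.15, adjusted p = 7.78e-06). The muscle form, Cpt1b, was not analysed here, since it had no row of its own, so the balance of the 2 forms is not known from these data.

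Because Cpt1a moved against the rest and Ucp3 fell most, the bases before their RefSeq starts (GRCm38.p6) are printed here up to the first annotated exon, 234 bases for Cpt1a and 249 for Ucp3, 5′ to 3′ on the plus strand. Capitals mark the half-site AGGTCA, or TGACCT where it lies on the other strand, the hexamer that PPAR and related nuclear receptors bind in pairs. The Cpt1a stretch is chr19:3323051-3323284, with 1 half-site 94 bases before the start. It lies within an intron of a longer Cpt1a transcript in the GENCODE annotation. For Ucp3 it is chr7:100472741-100472989, with half-sites 149 and 44 bases before the start.
Cpt1a: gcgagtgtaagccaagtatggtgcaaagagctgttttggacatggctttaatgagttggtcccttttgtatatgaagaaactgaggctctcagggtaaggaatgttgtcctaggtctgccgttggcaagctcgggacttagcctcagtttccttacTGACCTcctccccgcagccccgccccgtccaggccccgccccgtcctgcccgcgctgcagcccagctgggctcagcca
Ucp3: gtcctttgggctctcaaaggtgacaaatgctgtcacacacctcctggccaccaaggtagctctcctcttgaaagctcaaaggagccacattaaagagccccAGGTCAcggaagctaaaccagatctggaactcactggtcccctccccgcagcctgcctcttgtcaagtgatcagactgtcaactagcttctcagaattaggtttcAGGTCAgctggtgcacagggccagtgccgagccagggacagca
The member that rose and the one that fell most both carried this short motif, which 16.3% of all promoters searched also held. A part of the motif in either change was not tested.

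The table of promoters, which span 250 bases before to 50 bases after a start, had entries for 28 of the 35 members, with 33 promoters in all. The paired motif of PPAR, AGGTCA followed by any base and AGGTCA again, searched on both strands, was in 0 of them and in 0.0396% of all 32851 promoters in the table. The motif of oestrogen-related receptors, TCA followed directly by AGGTCA, was in 0 as well, beside 0.423% of all. The half-site AGGTCA, which both of the longer motifs contain, was found in 9 of the 33 promoters, 27.3%, beside 16.3% of all promoters. These 9 belonged to 8 members, namely Acacb, Acadm, Acadvl, Cd36, Cpt1a, Echs1, Plin5 and Ucp3. Search for the half-site was added after no member matched the longer motifs, and a match of letters is not a measured binding site.

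The other 4 genes of this step were all lower and did not overlap between groups. Acsl1 (ENSMUSG00000018796, chr8:46471037-46536051, plus strand), the main long-chain acyl-CoA synthetase of the heart, ran from 314 to 518 CPM (median 427) in sham and 19.5 to 127 CPM (median 24.7) in the IZ (log2 fold change -3.55, SE 0.32, adjusted p = 1.43e-09). Cpt2, which rebuilds acyl-CoA on the inner mitochondrial membrane, ran from 220.3 to 275 CPM (median 258) in sham and 17.4 to 76.5 CPM (median 26.03) in the IZ (log2 fold change -3.03, SE 0.23). Slc25a20 encodes the carnitine-acylcarnitine carrier between the 2 enzymes and ran from 168 to 225 CPM (median 205) in sham and 20.6 to 67.0 CPM (median 33.9) in the IZ (log2 fold change -2.45, SE 0.17). Crat, the carnitine acetyltransferase that buffers acetyl-CoA, ran from 284 to 344 CPM (median 309) in sham and 27.0 to 92.8 CPM (median 31.0) in the IZ (log2 fold change -3.05, SE 0.21).

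All 12 beta-oxidation enzymes were lower in the infarct zone, without overlap between the groups for any of them. The acyl-CoA dehydrogenases take the first step, each for its own range of chain lengths. Acadm, the medium-chain enzyme, had a log2 fold change of -3.61 (SE 0.30), Acadvl, the very-long-chain enzyme, -3.23 (SE 0.28), Acadl, the long-chain enzyme, -2.86 (SE 0.24), and Acads, the short-chain enzyme, -2.27 (SE 0.19). Acads thus had the smallest fall of the 4. It was also the least abundant, at 149.6 to 184 CPM (median 159) in sham and 22.1 to 71.4 CPM (median 30.4) in the IZ. Acadl was the most abundant by the sham median, at 804 to 1107 CPM (median 880.2) in sham and 82.6 to 346 CPM (median 104) in the IZ. Acadvl ran from 709 to 972 CPM (median 849) in sham and 53.6 to 282 CPM (median 69.3) in the IZ and Acadm from 465 to 914 CPM (median 685) in sham and 32.0 to 176 CPM (median 39.9) in the IZ. A pseudogene on the same strand, Gm15793, lies within Acadl and held 1650 counts against 16676, and Dvl2 overlaps the end of Acadvl on the other strand, with 420 counts against 14521.

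Hydration and the second oxidation are done by Echs1 and Hadh for short chains and by the trifunctional protein for long ones. Echs1, the short-chain enoyl-CoA hydratase, ran from 261 to 347 CPM (median 313) in sham and 32.5 to 143 CPM (median 53.8) in the IZ (log2 fold change -2.35, SE 0.21). Hadh, the short-chain hydroxyacyl-CoA dehydrogenase, ran from 387 to 595 CPM (median 443) in sham and 29.8 to 137 CPM (median 39.4) in the IZ (log2 fold change -3.26, SE 0.25). Of the pair the dehydrogenase had the larger fall. Hadha, the alpha subunit of the trifunctional protein, ran from 812 to 1187 CPM (median 967) in sham and 87.1 to 340.3 CPM (median 107) in the IZ. Hadhb, the beta subunit, ran from 563 to 945 CPM (median 713) in sham and 37.8 to 236 CPM (median 50.4) in the IZ. The beta subunit fell further than the alpha subunit (-3.42, SE 0.32, against -2.95, SE 0.24). Acaa2, the mitochondrial thiolase that cleaves off acetyl-CoA, ran from 896 to 1166 CPM (median 936) in sham and 35.9 to 252.2 CPM (median 66.2) in the IZ (log2 fold change -3.59, SE 0.30).

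Hadha and Hadhb stand head to head, and their RefSeq starts lie 273 bases apart. Their promoter windows, from 250 bases before to 50 bases after each start, share 228 bases on opposite strands. GENCODE places the 2 starts closer together, with 85 bases between the first exons. These 85 bases, chr5:30155163-30155247 (GRCm38.p6, plus strand, 5′ to 3′), are printed with capitals for the 68 bases that lie in both windows.
Hadha and Hadhb: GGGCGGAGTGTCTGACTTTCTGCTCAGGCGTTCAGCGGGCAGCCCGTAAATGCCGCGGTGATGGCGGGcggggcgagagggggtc
The same stretch thus precedes both genes, while the ratio of the 2 transcripts differed between the groups (Hadha over Hadhb among the pairs of partners).

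Double bonds of unsaturated fatty acids are handled by the auxiliary enzymes. The 2 enoyl-CoA isomerases were at the opposite ends of the step. Eci1 (ENSMUSG00000024132, chr17:24426641-24439348, plus strand) ran from 401 to 584 CPM (median 488) in sham and 23.2 to 110.2 CPM (median 30.4) in the IZ, a 13.1-fold fall (log2 fold change -3.71, SE 0.27, adjusted p = 4.38e-11). Eci2 (ENSMUSG00000021417, chr13:34977748-35027096, minus strand), found in mitochondria and peroxisomes, ran from 133 to 214 CPM (median 174) in sham and 42.7 to 76.5 CPM (median 54.7) in the IZ, a 3.15-fold fall (log2 fold change -1.65, SE 0.13, adjusted p = 1.86e-10). Eci1 was above Eci2 in sham and below it in all IZ libraries but replicate 1. Eci2 shares 165 bases at 95.8% identity with Eci3, which held 23 counts in all. Decr1, the dienoyl-CoA reductase, ran from 423 to 685 CPM (median 539) in sham and 47.3 to 150.4 CPM (median 61.0) in the IZ (log2 fold change -2.93, SE 0.19).

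Electron transfer genes fell by similar amounts. Etfa (ENSMUSG00000032314, chr9:55454508-55512243, minus strand) and Etfb encode the subunits of electron transfer flavoprotein, and Etfdh (ENSMUSG00000027809, chr3:79603788-79629500, minus strand) the membrane enzyme that hands its electrons to ubiquinone. Etfa ran from 539 to 821 CPM (median 603) in sham and 55.1 to 184 CPM (median 66.2) in the IZ (log2 fold change -3.04, SE 0.21, adjusted p = 2.95e-11). Etfdh ran from 269 to 417 CPM (median 333) in sham and 18.6 to 109 CPM (median 27.0) in the IZ (log2 fold change -3.20, SE 0.28, adjusted p = 6.67e-10). Etfb, ranked 85 in sham by mean CPM, ran from 962 to 1571 CPM (median 1372) in sham and 86.4 to 340.3 CPM (median 127) in the IZ (log2 fold change -3.15, SE 0.22). Groups were apart for all 3. Etfa shares 240 bases at 95.4% identity with Gm15289, which held 471 counts against 11381, and Etfb overlaps Gm45233 on the same strand, which had no row.

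Ucp3 fell furthest of all 35 members. Its product, uncoupling protein 3, sits in the inner mitochondrial membrane of muscle and rises in many settings of high fatty acid supply. Ucp3 (ENSMUSG00000032942, chr7:100472990-100486432, plus strand) ran from 9.44 to 46.2 CPM in sham (median 32.0) and from 0 to 5.44 CPM in the IZ (median 0.363). Sham libraries held 17 to 82 counts of it, IZ replicate 1 held 15, and the other 8 IZ libraries held at most 3, with 0 in 4 of them. The log2 fold change was -5.22 (SE 0.49, adjusted p = 2.77e-09). Without IZ replicate 1 the level was at least 29.7-fold lower, taking 3 counts per library as the floor (1.06 CPM on average). Acot2, a mitochondrial thioesterase that frees fatty acids from coenzyme A, was also lower, at 107 to 186 CPM (median 139) in sham and 10.2 to 42.8 CPM (median 16.3) in the IZ (log2 fold change -3.02, SE 0.22). So was Acot13 (ENSMUSG00000006717, chr13:24817948-24831540, minus strand), another thioesterase, at 482 to 726 CPM (median 583) in sham and 50.4 to 226 CPM (median 79.2) in the IZ (log2 fold change -2.64, SE 0.23, adjusted p = 1.12e-09). In both thioesterases all IZ libraries were below all sham libraries.

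Lipid droplet genes had the widest spread. Plin5 (ENSMUSG00000011305, chr17:56111601-56117596, minus strand) coats droplets in oxidative tissues and ties them to mitochondria, and it ran from 95.02 to 122 CPM (median 107) in sham and 0.974 to 21.7 CPM (median 1.98) in the IZ. Its groups lay far apart, and only IZ replicate 1 exceeded 3.13 CPM among the IZ libraries. The fall was 26.9-fold (log2 fold change -4.75, SE 0.39, adjusted p = 3.00e-10), or -5.75 (SE 0.16) on the log2 scale without that library. Plin5 counts went down to 3 in the IZ, so the size of its fall is rough. Dgat2, one of the enzymes that complete triglyceride, ran from 167 to 308 CPM (median 179) in sham and 1.45 to 56.2 CPM (median 5.01) in the IZ (log2 fold change -4.29, SE 0.47, adjusted p = 2.71e-08). Without replicate 1 its log2 fold change was -5.37 (SE 0.21), a rough size, since its counts went down to 4 in the IZ. Dgat1 (ENSMUSG00000022555, chr15:76502015-76511953, minus strand) catalyses the same reaction with an unrelated protein, and it was nearly level, at 15.6 to 26.1 CPM (median 19.4) in sham and 10.7 to 19.0 CPM (median 14.5) in the IZ. Its groups overlapped, with 7 of 9 IZ libraries below all sham libraries, and the fall was 1.39-fold (log2 fold change -0.47, SE 0.14, adjusted p = 0.00386). With total counts as library sizes Dgat1 was instead higher in the IZ, at 0.61 on the log2 scale, where the median of all genes tested was 1.14.

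Pnpla2 encodes ATGL, which removes the first fatty acid from triglyceride, and Lipe encodes hormone-sensitive lipase, which takes the next. Pnpla2 ran from 192 to 270.4 CPM (median 239.9) in sham and 19.0 to 96.8 CPM (median 33.0) in the IZ (log2 fold change -2.63, SE 0.23). Lipe ran from 22.3 to 44.1 CPM (median 28.8) in sham and 5.66 to 19.2 CPM (median 10.5) in the IZ (log2 fold change -1.44, SE 0.20). Both were lower in every IZ library than in any sham library, Pnpla2 by more, and the call of Lipe was lost with total counts as library sizes. Plin4, a perilipin of nascent droplets, ran from 63.8 to 95.2 CPM (median 79.2) in sham and 4.88 to 28.6 CPM (median 9.06) in the IZ (log2 fold change -2.76, SE 0.22). Plin4 overlaps Hdgfl2 on the other strand, which held 1269 counts against 1498, and the strand setting of the counting is not given in the sources used here.

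Both malonyl-CoA genes were lower. Acacb (ENSMUSG00000042010, chr5:114146535-114250761, plus strand) makes malonyl-CoA at the mitochondrial surface and Mlycd (ENSMUSG00000074064, chr8:119394878-119411102, plus strand) degrades it. Acacb ran from 109 to 163 CPM (median 123) in sham and 4.94 to 40.2 CPM (median 7.36) in the IZ (log2 fold change -3.72, SE 0.33, adjusted p = 1.03e-09), and its log2 fold change was -4.42 (SE 0.14) without IZ replicate 1. Mlycd ran from 118 to 166 CPM (median 138) in sham and 10.8 to 38.4 CPM (median 13.9) in the IZ (log2 fold change -3.05, SE 0.20, adjusted p = 8.18e-12). Neither overlapped between groups.

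Since contractile transcripts fell as well, each member was also tested relative to the summed counts of the 8 contractile genes. This shows unequal change between transcripts and does not show which of them changed. On this scale 4 members were lower, 17 were higher and 14 were not called, where 0.512% of all genes tested were lower and 97.0% higher. The median log2 difference was 0.63 for the members beside 3.94 for all genes tested. Without IZ replicate 1, 4 were lower and 22 higher. The 8 contractile genes were themselves divided on this scale, 4 called lower, 3 higher and 1 not called. They ran from -1.01 for Tnni3 to 1.29 for Actc1 relative to their own sum. On the TMM scale they ran from -4.19 for Tnni3 to -2.12 for Actc1 as log2 fold changes (median -3.34). Without IZ replicate 1 they ran from -5.00 for Tnni3 to -2.62 for Actc1 (median -4.25).

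**Figure D3:**
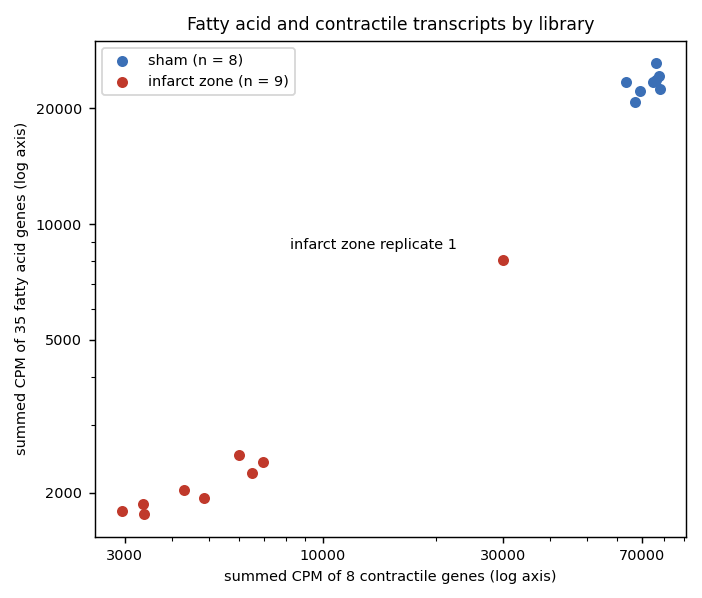
Summed CPM of the 35 fatty acid genes against summed CPM of the 8 contractile genes, 1 point per library, both axes logarithmic. Sham libraries (n = 8) lie between 20789 and 26207 on the fatty acid axis, infarct zone replicate 1 at 8063, and the other 8 infarct zone libraries between 1763 and 2509.

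The 4 members that fell beyond the contractile sum were Ucp3 at -2.16 (SE 0.48, adjusted p = 3.25e-05), Plin5 at -1.61 (SE 0.36, adjusted p = 3.82e-05), Dgat2 at -1.24 (SE 0.34, adjusted p = 6.03e-04) and Fabp3 at -0.68 (SE 0.27, adjusted p = 0.0167), all as log2 differences. They come from 3 steps, namely lipid droplets, uptake and the uncoupling protein, and include no beta-oxidation enzyme. Of the 4, Fabp3 alone lay within the range of the contractile genes themselves on this scale (-1.01 to 1.29). Of the 12 beta-oxidation enzymes 6 were higher on this scale and 6 were not called. Eci2 at 2.16 and Acads at 1.42 were the highest of them, and Eci1 at -0.17 and Acadm at -0.11 the lowest. Furthest above the contractile sum over all steps were Cpt1a at 4.84, Dgat1 at 3.40, Slc27a1 at 2.60 and Lipe at 2.36. Calls of Hadha, Etfa and Mlycd as higher were close to the threshold and were lost when any 1 of several libraries was left out. As a share of the contractile sum, the sum of the members was 28.9 to 36.9% in sham, 26.9% in IZ replicate 1 and 34.5 to 61.1% in the other IZ libraries.

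**Figure D4:**
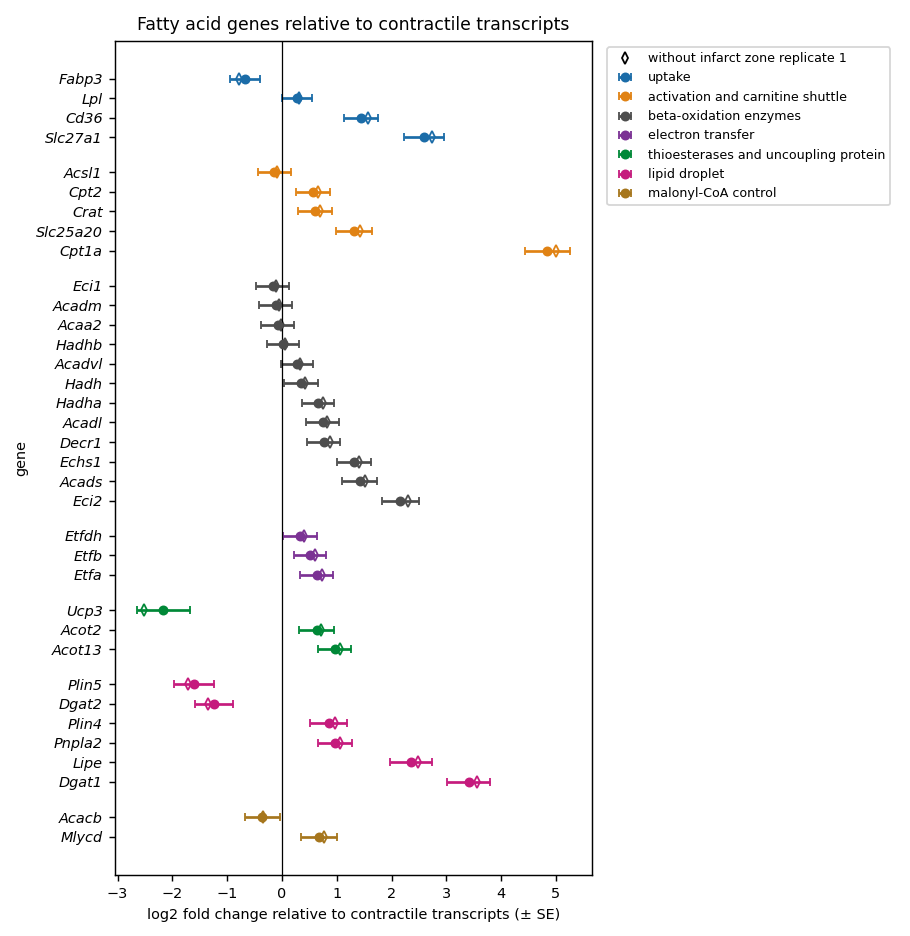
Log2 difference of each member between infarct zone and sham relative to the summed counts of 8 contractile genes (points with bars of 1 SE, open diamonds without infarct zone replicate 1). Fabp3, Ucp3, Plin5 and Dgat2 are the 4 members called lower, and Cpt1a, at 4.84, lies furthest to the right.

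Ratios of 2 counts within a library do not depend on the scaling of libraries, and 14 pairs of partners were compared by them (difference of mean log2 ratios between groups, two-sided exact permutation test enumerated in full, whose smallest possible p is 4.11e-05, Benjamini-Hochberg adjusted over the 14 pairs). In 12 pairs the adjusted p was under 0.05. Pairs of other genes were not compared, so whether partners differ more often than other pairs is not known. Of all genes tested singly with TMM scaling, 33.1% were called lower and 36.3% higher. The perilipins, the carnitine palmitoyltransferases and the triglyceride-completing enzymes had the largest differences. The ratio of Cpt1a to Cpt2 went from 0.116 in sham to 1.96 in the IZ, a log2 difference of 4.07 (exact permutation p = 4.11e-05, adjusted p = 1.65e-04). For Dgat1 to Dgat2 the ratio went from 0.0998 to 2.26, a log2 difference of 4.504 (exact permutation p = 8.23e-05, adjusted p = 1.65e-04). No IZ library overlapped with sham in either pair. The order of the transcripts was turned around in 8 of 9 IZ libraries, and IZ replicate 1 kept the order of sham, with log2 ratios of -0.87 for Cpt1a/Cpt2 and -1.93 for Dgat1/Dgat2.

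Perilipins changed unequally. Plin4 over Plin5 went from 0.731 to 3.73 (log2 difference 2.35, adjusted exact permutation p = 1.65e-04). Plin2, a perilipin of most cell types that is no member of the list, was itself called higher in the IZ (log2 fold change 2.17, SE 0.18). Its ratio to Plin5 went from 0.361 to 57.5 (log2 difference 7.31, adjusted exact permutation p = 1.65e-04), and IZ replicate 1, with a log2 ratio of 1.74, lay far under the other 8 IZ libraries at 6.08 to 6.97. Plin5 counts went down to 3 in the IZ, so the size of both ratios there is rough. The lipases moved the other way, with Pnpla2 over Lipe at 7.59 in sham and 3.12 in the IZ (log2 difference -1.28, adjusted exact permutation p = 5.04e-04).

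**Figure D5:**
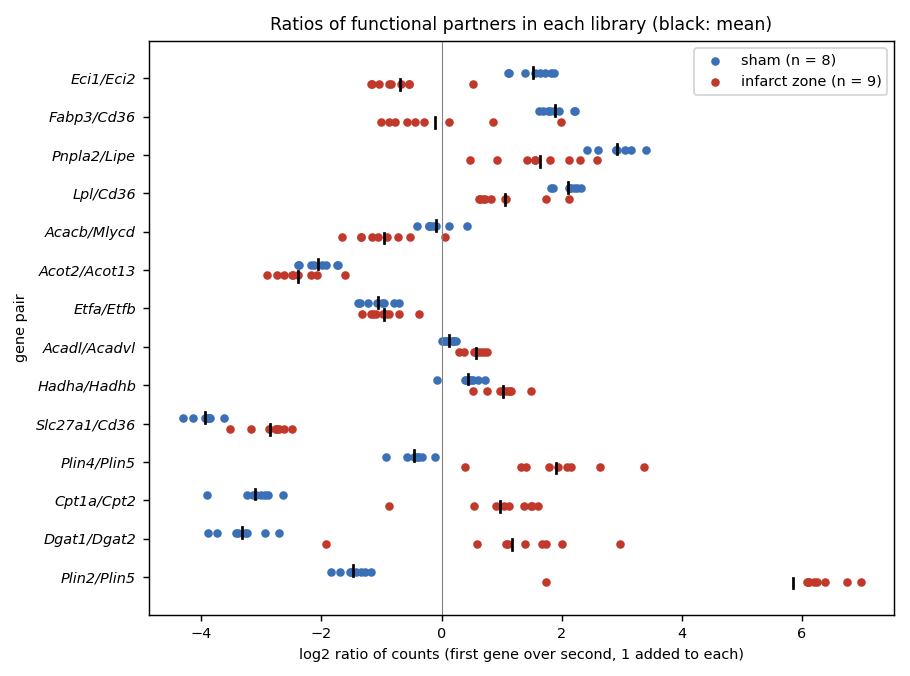
Log2 ratio of counts of 14 pairs of partner genes in each library, for sham (n = 8) and the infarct zone (n = 9). Cpt1a/Cpt2, Dgat1/Dgat2, Plin4/Plin5 and Plin2/Plin5 lie higher in all infarct zone libraries than in any sham library, Eci1/Eci2 lies lower in all, and Etfa/Etfb overlaps.

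Subunits of 1 enzyme did not always move together. Hadha over Hadhb went from 1.36 to 2.04 (log2 difference 0.59, adjusted exact permutation p = 5.12e-04), with 8 of 9 IZ libraries above all sham libraries and replicate 1 the exception. For Etfa over Etfb the ratio was 0.479 in sham and 0.515 in the IZ (log2 difference 0.11, exact permutation p = 0.435, adjusted p = 0.435), and the groups overlapped. Eci1 over Eci2 went from 2.88 to 0.616 (log2 difference -2.23, adjusted exact permutation p = 1.65e-04). Acadl over Acadvl moved by only 0.44 on the log2 scale, from 1.09 to 1.48, yet without overlap (adjusted exact permutation p = 1.65e-04).

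Within uptake, Fabp3 over Cd36 went from 3.72 to 0.926 (log2 difference -2.004, adjusted exact permutation p = 7.85e-04) and Lpl over Cd36 from 4.30 to 2.08 (log2 difference -1.05, adjusted exact permutation p = 7.49e-04). In both, IZ replicate 1 lay within the sham range and the other 8 IZ libraries below it. Slc27a1 over Cd36 rose from 0.0651 to 0.139 (log2 difference 1.09, adjusted exact permutation p = 1.65e-04). Acacb over Mlycd fell from 0.944 to 0.514 (log2 difference -0.88, adjusted exact permutation p = 0.00125), again with replicate 1 within sham. Acot2 over Acot13 was 0.241 in sham and 0.191 in the IZ and did not pass (log2 difference -0.33, exact permutation p = 0.0619, adjusted p = 0.0666). The pair of Cpt1a and Cpt1b could not be compared.

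Other genes of the pathway were more divided than the members. Both the members and these lists were chosen with earlier results of these data known. The part of that choice in the contrast was not tested. Of 86 further genes with a row, 73 were tested, of which 45 were called lower, 22 higher and 6 neither, with a median log2 fold change of -0.75. Over all genes tested, the comparison for each list below, 33.1% were called lower and 36.3% higher, with a median of 0.05. With total counts as library sizes the split of these pathway genes was 24 lower and 36 higher. All 9 tested genes of mitochondrial oxidation outside the list were lower, the lowest being Ech1, a dienoyl-CoA isomerase (log2 fold change -3.83, SE 0.31). Of 13 tested peroxisomal genes 10 were lower, the lowest being Ehhadh, the peroxisomal bifunctional enzyme (log2 fold change -2.32, SE 0.25), and 1, the oxidase Acox3, was higher (log2 fold change 0.79, SE 0.16).

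In the remaining uptake genes 6 of 10 were lower and 3 higher. Vldlr, the very low density lipoprotein receptor, was the lowest (log2 fold change -3.14, SE 0.39, and -3.99 without IZ replicate 1). Fabp5, the epidermal fatty acid binding protein that macrophages also express, ran from 13.3 to 34.6 CPM (median 20.6) in sham and 65.2 to 237 CPM (median 154) in the IZ (log2 fold change 2.68, SE 0.23, adjusted p = 7.55e-10). Angptl4, a secreted inhibitor of lipoprotein lipase, was higher (log2 fold change 1.93, SE 0.29), as was Slc27a3 (log2 fold change 2.56, SE 0.31). Among 6 genes of activation and the shuttle, Dbi, an acyl-CoA binding protein, was the lowest of the 2 that fell (log2 fold change -0.52, SE 0.12), while Acsl3, Acsl4, Acsl5 and Cpt1c were higher, by 1.29, 0.88, 1.41 and 2.19 on the log2 scale. Thus 3 other long-chain acyl-CoA synthetases rose where Acsl1 fell. A further one, Acsl6, did not pass the filter on low counts, at a mean of 8.08 CPM in sham and 0.894 CPM in the IZ.

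Of 7 further thioesterase and uncoupling genes 4 were lower, the lowest being Acot1 (log2 fold change -2.48, SE 0.24), and Acot9 and Ucp2 were higher (0.80 and 2.21 on the log2 scale). Ucp2, which is common in immune cells, ran from 13.3 to 20.7 CPM (median 17.4) in sham and 56.3 to 118 CPM (median 75.7) in the IZ, in contrast to Ucp3. For lipid droplets 12 of 18 were lower, the lowest being Fitm1, a protein of droplet budding in muscle (log2 fold change -4.12, SE 0.49, and -5.36 without IZ replicate 1). Higher were Plin2, Lpin2 (2.03), Hilpda (1.18), Bscl2 (1.01) and Lpin3 (0.83), as log2 fold changes. Plin2 ran from 28.3 to 45.0 CPM (median 38.9) in sham and 73.6 to 234 CPM (median 172) in the IZ, with no overlap.

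Fatty acid synthesis was the list with the largest share of higher genes, 7 of 10, with 2 lower, where 36.3% of all genes tested were called higher. Activation and the shuttle, with 4 of 6 higher, came close to it. Elovl1 (1.72), Scd2 (1.44), Elovl6 (1.10), Acaca (0.84), Elovl5 (0.61), Acly (0.57) and Fasn (0.44) were higher, as log2 fold changes, and Acss1, a mitochondrial acetyl-CoA synthetase, was the lowest (log2 fold change -3.40, SE 0.27). Acaca and Acacb, which encode the cytosolic and the mitochondrial acetyl-CoA carboxylase, thus had opposite signs.

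Markers of other cells moved with these values, and their part in them was not tested. Summed CPM of 7 macrophage markers was 367 to 527 in sham and 1899 to 5135 in the IZ, and that of 7 fibroblast markers 1532 to 2970.0 and 12649.9 to 20655. Among 5 endothelial markers 2 were lower and 3 not called, with sums of 418 to 840 CPM in sham and 307 to 499 CPM in the IZ. Neutrophil markers were scarce, at 3.85 to 11.7 CPM in sham and 15.2 to 209.9 CPM in the IZ, with Ly6g at 1 count at most. Of the 5 in the list, 3 were tested, and all 3 were called higher. Fast skeletal muscle markers stayed at or under 23.4 CPM, and Myh4 was at 0 in every library. Of the 6 in that list, 2 were tested. Tnnt3 was called higher, with all 9 IZ libraries above all sham libraries, and Tnni2 was not called.

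Fat cells, which use many of the same droplet genes, left little trace in most libraries. None of 7 white adipocyte markers passed the filter on low counts, and their sum was 2.19 to 31.1 CPM in sham. In the IZ it was 226 CPM in replicate 2, 72.7 in replicate 7 and 48.5 in replicate 3, of which Cfd was the largest part in replicate 2, and at most 2.54 CPM in the other 6. Leaving out replicate 2, 3 or 7 left 34 members lower and 1 higher in each case. The brown fat marker Ucp1 had 1 count at most in any library, while Cidea, which brown fat shares with mouse heart, was lower in the IZ (log2 fold change -2.47, SE 0.30).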

How the data were processed

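Hearts of 17 mice were measured, 8 sham and 9 IZ, each from a separate animal by the study's methods. Total RNA was read at transcript 3′ ends by massive analysis of cDNA ends, with molecular identifiers to remove PCR duplicates. According to the submitters' processing notes and the methods, bcl2fastq, Cutadapt, Bowtie2, HTSeq and DESeq2 were used with genome mm10. The deposited values are raw counts per gene, with no normalization by the authors. The strand setting, the annotation release and how reads with several locations were treated are not given in the sources used here. Of 31647 features, 35 were merged groups of genes, which stayed in library sizes and tests but were given no name, and 31554 matched the GRCm38 annotation (GENCODE) used for names and positions. Pairs of libraries differed by at least 2.56 times the variance of sampling, so none was a copy of another.

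Genes that passed filterByExpr (minimum count 10) entered edgeR 4.0.16 under R 4.3.3: TMM scaling (factors 0.613 to 1.54), two-sided quasi-likelihood F-test, no covariates, Benjamini-Hochberg adjustment over all genes tested, threshold 0.05. The same test was run with the summed counts of 8 contractile genes as library size. Log2 ratios of pairs used counts plus 1 and an exact two-sided permutation test. The F statistic gave the standard error (SE) of each log2 fold change. Near-identical genes were sought with BLAST 2.17.0 over the last 500 bases, keeping at least 100 bases at 95% identity. Promoters came from a RefSeq table of GRCm38.p6, which held no entry for Acaa2, Acot13, Crat, Decr1, Dgat1, Dgat2 and Lpl. Python 3.11.15 with NumPy 2.4.6, pandas 2.3.3, SciPy 1.17.1 and Matplotlib 3.10.9 did the remaining steps. The procedure was tested on simulated data.

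Named are all members, other pathway genes called higher, the lowest called gene of each further list, and markers near 0; the member with the highest and lowest log2 fold change of each step is plotted by library. The members and lists were chosen with earlier results of these data known. Alternatives were DESeq2 size factors, total counts, DESeq2 1.42.0 (Wald test), no filter, a minimum mean of 50 counts, removal of mitochondrially encoded features, other forms of the contractile sum, the replicate number as a block, other ratio settings and leaving out each library once. Depth limits low transcripts most: a floor of 3 counts covers counting error only.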

Additional observations from a re-analysis of the deposited data

Results flagged for a closer look

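In each of the 35 members the values of the 8 sham and of the 9 IZ libraries were checked for a library set far from the rest of its group (Dixon's test at the 95% level), which gives 70 groups. Chance flags about 1 in 20 groups, and 24 were flagged here. The groups share the same 17 libraries and are not independent, so the flags are not separate events. All 24 were the same library, IZ replicate 1, standing high. It is also the library with the most mitochondrially encoded and contractile transcripts of the IZ. The part of these transcripts in the flagged values was not tested.

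Values of IZ replicate 1 that stood apart were found at every step. For uptake and activation they were 1744 CPM of Fabp3, 1896 CPM of Lpl, 127 CPM of Acsl1 and 92.8 CPM of Crat. For the acyl-CoA dehydrogenases they were 282 CPM of Acadvl, 346 CPM of Acadl, 176 CPM of Acadm and 71.4 CPM of Acads. The other beta-oxidation enzymes had 143 CPM of Echs1, 137 CPM of Hadh, 340.3 CPM of Hadha, 236 CPM of Hadhb, 252.2 CPM of Acaa2, 110.2 CPM of Eci1 and 150.4 CPM of Decr1. Electron transfer genes had 184 CPM of Etfa, 340.3 CPM of Etfb and 109 CPM of Etfdh. The rest were 42.8 CPM of Acot2, 5.44 CPM of Ucp3, 21.7 CPM of Plin5, 96.8 CPM of Pnpla2, 38.4 CPM of Mlycd and 40.2 CPM of Acacb.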

How the results depend on the processing

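The count of 34 members lower and 1 higher was the same with DESeq2 size factors, the DESeq2 Wald test, no filter, removal of mitochondrially encoded features and with each library left out once (lower 34 to 34, higher 1 to 1). A minimum mean of 50 counts left 32 members, 31 lower and 1 higher. Total counts as library sizes gave 31 lower and 2 higher. The second was Dgat1, which turned from -0.47 to 0.61, and Slc27a1 and Lipe lost their calls. This scaling moved the median of all genes tested from 0.05 to 1.14 and their calls from 4074 lower and 4470 higher to 1524 and 9203. Other pathway genes then went from 45 lower and 22 higher to 24 and 36, and a minimum mean of 50 counts left 14 higher, with fewer genes tested. With each library left out in turn they were 44 to 46 lower and 21 to 22 higher.

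Relative to contractile genes, 4 to 4 members were lower and 14 to 22 higher when each library was left out, the most without IZ replicate 1. Hadhb, not called on this scale at 0.02, was -0.12 with Myh6 left out of the sum and ran from -0.050 to 0.12 when libraries were left out. Acadm, at -0.11, was 0.0071 without sham replicate 5 (range -0.21 to 0.0071). Of the 14 pairs, 12 to 13 differed when each library was left out. Acot2/Acot13 was the pair that then passed, without sham replicate 3 or 8 or IZ replicate 7, and also by medians.

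Sham and IZ share replicate numbers in the labels, but these did not pair the libraries: deviations of same-numbered libraries correlated at -0.22 to 0.13, and 1 of 8 sham libraries correlated best with its own number. With the replicate block 34 members were lower and 1 higher, and 12 pairs differed. Relative to contractile genes the block gave 3 lower and 11 higher, and Fabp3 lost its call. The cause was not tested.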

Other observations

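Sham hearts differed among themselves in a few of these genes. The coefficient of variation over the 8 sham libraries was 6.65% for Crat, 13.6% at the median of the 35 members and 44.0% for Ucp3, the highest. Lipe was the next, at 26.7%. Ucp3 was 46.2, 45.1 and 44.9 CPM in sham replicates 2, 3 and 1, then 36.7 in replicate 5, 27.3 in replicate 7, 22.9 in replicate 4, 19.1 in replicate 6 and 9.44 in replicate 8. Cpt1a was lowest in the same library as Ucp3, at 16.1 CPM in replicate 8 against 23.1 to 36.2 CPM in the other 7. Slc27a1 was lowest there as well, at 55.0 CPM against 61.0 to 99.8 CPM. Pdk4, a kinase that holds back glucose oxidation and is no member of the list, was 72.8 CPM in replicate 8 and 154 to 397 CPM in the others. These genes were picked after their values were seen, and no test was made.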
